A study of Mus musculus with 6 samples.

Results

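The 10 genes described here encode the 5 subunits of the transcription factor NF-kappaB (Nfkb1, Nfkb2, Rel, Rela and Relb) and 5 regulators of it (Nfkbia, Nfkbie, Nfkbid, Tnfaip3 and Bcl3). They were taken by symbol from a table of 54532 gene rows measured by RNA sequencing of mouse CD4 T cells, and each of the 10 symbols had 1 row. The KO libraries (KO 1, KO 4 and KO 5) came from C57BL/6 animals labelled iCD4-PRMT5 delta/delta, in which Prmt5, the gene of an arginine methyltransferase, is labelled as deleted, and the WT libraries (WT 1, WT 2 and WT 4) from C57BL/6 animals labelled iCD4-PRMT5fl/fl. The sources used here do not say what drives the deletion, nor the ages. Both groups share the cell source (CD4 T cells of spleen and lymph nodes) and a treatment label of anti-CD3/CD28 for 48 h. Every title and every column header of these libraries says rest, however, and the table's 6 other columns, not used here, say act. The labels thus conflict, and the activation state of the cells is uncertain. A code in the library descriptions places KO 4, KO 5 and WT 4 in series 24 and KO 1, WT 1 and WT 2 in series 22. The labels do not say what that code stands for.

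NF-kappaB is a family of dimers that share a DNA-binding Rel homology region. Nfkb1 and Nfkb2 encode precursors that are processed to the p50 and p52 subunits, and Rela, Rel and Relb encode the subunits that carry an activation domain. In resting T cells the dimers are held in the cytoplasm by inhibitors such as IkappaB-alpha, the product of Nfkbia. Signals from the T cell receptor and CD28 reach the IkappaB kinases through BCL10 and MALT1, the inhibitor is degraded, and the released dimers switch on genes that include several of their own inhibitors. Transcripts of these genes are therefore used as readouts of recent NF-kappaB activity.

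Values are robust FPM, fragments assigned to a gene and scaled by robust size factors by the authors, so that they depend on gene length. Levels of different genes are compared only after division by the length of their exons in kb. That length counts every annotated exonic base of a gene once, over all its transcripts, from 1610 bases for Nfkbia to 12061 for Nfkb1. Where the cells use shorter transcripts, the level per kb is understated. The order of genes and the size of ratios between them therefore depend on the annotation. In tests, values were taken as log2(value + 0.5), differences are KO minus WT or series 24 minus series 22, and p-values from limma carry a Benjamini-Hochberg adjustment over 14944 genes with a mean of at least 1, called where the adjusted p was below 0.05. Sequencing depth is unknown. With 3 libraries against 3, an exact permutation test cannot give a p below 0.1. The series' design text calls the samples biological replicates. A limma p-value sets a difference against the spread between them, combined with a variance estimated from other genes of similar mean.

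The libraries carried T cell transcripts, with Cd4 between 388.8 and 465.0 FPM and a sum over 10 T cell markers of 3325.7 to 4023.7 in KO libraries and 3079.8 to 3948.7 in WT libraries, and in amounts that varied they carried myeloid transcripts. Transcripts of B cells were low (Cd79a at 0.2 to 0.7), the sum of 12 B cell markers being 35.5 to 49.6 in KO libraries and 31.3 to 52.5 in WT libraries, with none of the 12 listed at 0 throughout. The sum of 16 myeloid markers was 753.4 to 1671.2 in KO libraries and 307.2 to 1104.1 in WT libraries, with none of the 16 listed at 0 throughout. Lyz2, a macrophage lysozyme gene, measured 66.5, 128.3 and 482.5 in KO 1, KO 4 and KO 5 and 19.0, 23.6 and 204.2 in WT 1, WT 2 and WT 4, and in KO 5 it lay above Cd4 (391.7). The sum of 11 CD8 T and NK cell markers was 141.1 to 182.4 in KO libraries and 131.5 to 170.5 in WT libraries. Of these, Cd8a measured only 0.2 to 2.1 FPM, and 10 of the 11 averaged at least 1. The sum of 8 dendritic cell markers was 67.6 to 90.1 in KO and 61.9 to 103.1 in WT libraries. For 9 erythroid and platelet markers the sum was 10.5 to 15.9 in KO and 8.5 to 14.8 in WT libraries, with the 4 globin genes listed at 0. NF-kappaB genes are used by many of these cells, the values are of whole samples, and fewer cells of a type cannot be told apart from less RNA per cell. WT 1 stood apart, with 0.300 FPM per kb at olfactory and vomeronasal receptor genes, which T cells do not use, against 0.0145 to 0.0838 in the other 5 libraries. Prmt5 measured 24.4, 23.8 and 21.5 in KO 1, KO 4 and KO 5, against 34.9, 41.0 and 43.9 in WT 1, WT 2 and WT 4, with no overlap. Its log2 difference was -0.78 (SE 0.14), and limma did not call it (adjusted p = 1).

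Many of these genes carry, before their starts, the DNA motif that NF-kappaB itself binds. RefSeq promoter windows (GRCm38.p6) were at hand for 8 of the 10 genes, Nfkb1 and Relb not among them, and the 250 bases before each start were searched on both strands for the kappaB consensus. A match was found in at least 1 window of 6 genes (Nfkb2, Rel, Nfkbia, Nfkbie, Nfkbid and Tnfaip3) and in none for Rela and Bcl3. Of the 13 windows of these genes 8, or 61.5%, held a match, against 7.25% of all 32851 promoter windows of the same length. Windows of alternative starts of 1 gene are not independent, and a match is a resemblance of letters. A gene with more windows had more chances of a match, and no share by gene was computed over all genes. The windows of Tnfaip3 and Nfkbia are shown because these genes differed most between libraries, and those of Rel and Nfkbie because they also hold the motif and differed little. Of the Tnfaip3 window only the 137 bases next to the start are printed, which lie in an intron of a longer Tnfaip3 transcript in GENCODE M21. The windows of Nfkbia and Nfkbie lie in no exon of that annotation, and that of Rel shares 1 base with its first exon. Sequences are given 5′ to 3′, and capitals mark the kappaB matches.
Tnfaip3 (chr10:19015411-19015547, minus strand): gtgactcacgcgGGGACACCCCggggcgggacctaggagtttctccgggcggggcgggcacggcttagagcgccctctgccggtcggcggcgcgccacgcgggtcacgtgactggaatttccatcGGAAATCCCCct
Nfkbia (chr12:55492648-55492897, minus strand): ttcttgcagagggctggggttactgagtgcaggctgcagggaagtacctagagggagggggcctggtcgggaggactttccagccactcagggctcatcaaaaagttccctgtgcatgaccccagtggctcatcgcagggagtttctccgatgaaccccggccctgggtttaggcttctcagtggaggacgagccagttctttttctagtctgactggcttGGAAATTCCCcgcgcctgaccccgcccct
Rel (chr11:23770970-23771219, minus strand): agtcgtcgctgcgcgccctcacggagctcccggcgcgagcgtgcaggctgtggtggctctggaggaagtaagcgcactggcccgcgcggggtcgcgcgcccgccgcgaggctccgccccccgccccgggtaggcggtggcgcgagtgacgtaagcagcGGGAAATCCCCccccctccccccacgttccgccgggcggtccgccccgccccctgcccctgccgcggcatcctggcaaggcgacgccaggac
Nfkbie (chr17:45555450-45555699, plus strand): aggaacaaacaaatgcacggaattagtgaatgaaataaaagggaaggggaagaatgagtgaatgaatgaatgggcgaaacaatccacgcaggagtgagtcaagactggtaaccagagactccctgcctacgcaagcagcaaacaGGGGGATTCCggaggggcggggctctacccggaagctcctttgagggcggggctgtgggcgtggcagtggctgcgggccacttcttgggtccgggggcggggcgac
The Tnfaip3 window held 2 separate matches, 125 to 116 and 12 to 3 bases before the start, and the AP-1 motif TGANTCA at 136 to 130 bases before it. The Nfkbia window held 1 match at 29 to 20 bases before the start. In Rel, 2 overlapping matches, shifted by 1 base, form 1 run of capitals. The Nfkbie window held 1 kappaB match, 106 to 97 bases before the start, and TGANTCA at 156 to 150. TGANTCA, which reads the same on both strands, stood in 6.75% of all windows.

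With the exon lengths used (2346 bases for Nfkbid, 12061 for Nfkb1), 3 inhibitors, Nfkbia, Tnfaip3 and Nfkbid, had the highest means per kb over the 6 libraries. For Tnfaip3 that place rests on series 22: it averaged 18.1 ± 1.85 FPM per kb in series 24, below Nfkb1 at 21.3 ± 2.09, and 86.4 ± 18.9 in series 22, the highest mean of the 10 genes there (SD, n = 3 each). Nfkbia (ENSMUSG00000021025.8, GRCm38 chromosome 12, 55489410 to 55492647, minus strand) had the highest mean level, 72.2 ± 25.9 FPM per kb in KO libraries and 70.3 ± 15.0 in WT libraries (SD, n = 3 each). Tnfaip3 followed at 47.5 ± 50.8 in KO and 57.1 ± 34.7 in WT libraries (SD, n = 3 each). Its 6 values ran from 16.3 to 106.1, and those of Nfkbia from 52.5 to 101.6, so the order of these 2 is not separated. Nfkbid came next at 34.3 ± 6.72 in KO and 36.3 ± 5.31 in WT libraries (SD, n = 3 each).

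Among the subunits, Nfkb1 stood above the others. It had 20.6 ± 1.48 FPM per kb in KO and 20.0 ± 2.93 in WT libraries (SD, n = 3 each), and none of its 6 values, 17.2 to 23.0, overlapped those of any other gene of the group except Tnfaip3. Nfkb2, Nfkbie, Rel, Rela and Relb formed a band with means over the 6 libraries between 8.79 and 10.7 FPM per kb, in which each gene overlapped its neighbour in the order. Bcl3 was lowest, at 3.43 ± 0.710 in KO and 3.41 ± 0.842 in WT libraries (SD, n = 3 each), and its highest value, 4.32, lay below the lowest value of Relb, 7.36. Among the subunits the p50 gene thus came first, and the other 4 were not separated.

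**Figure D1:**
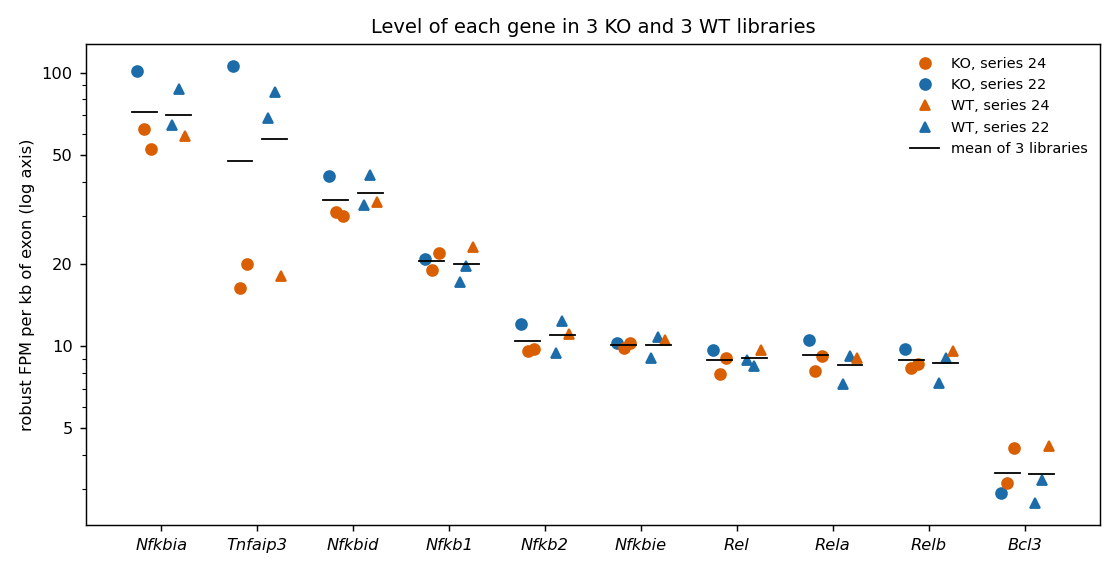
Level of each gene in robust FPM per kb of exon (log axis) in each library, with KO libraries as circles left of WT libraries as triangles, colour for library series and a line at each group's mean. The KO and WT points of every gene overlap, and for Tnfaip3 the 3 points of series 24 (16.3 to 20.0) lie far below the 3 of series 22 (68.3 to 106.1).

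The comparison of KO with WT asks which transcripts differ in amount between cells labelled as Prmt5-deleted and their floxed controls. None of the 5 subunits passed. Nfkb1 (ENSMUSG00000028163.17, chromosome 3, 135584655 to 135691547, minus strand), the gene of p105 and p50, measured 250.6, 229.0 and 264.5 FPM in KO 1, KO 4 and KO 5 and 207.5, 236.8 and 277.8 in WT 1, WT 2 and WT 4. The KO values lay inside the range of the WT values, and the log2 difference was 0.00 (SE 0.13, limma adjusted p = 1). Rela (ENSMUSG00000024927.7, chromosome 19, 5637483 to 5648130, plus strand), the gene of the p65 subunit, measured 32.3, 24.9 and 28.4 in KO 1, KO 4 and KO 5 and 22.4, 28.4 and 27.8 in WT 1, WT 2 and WT 4. The highest value was that of KO 1 and the lowest that of WT 1, the groups overlapped, and the log2 difference was 0.14 (SE 0.16, limma adjusted p = 1).

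Rel (ENSMUSG00000020275.9, chromosome 11, 23736847 to 23770970, minus strand) encodes c-Rel, the subunit tied most closely to T cell activation. It measured 72.6, 59.2 and 67.7 in KO 1, KO 4 and KO 5 and 66.3, 63.4 and 72.6 in WT 1, WT 2 and WT 4, with a log2 difference of -0.02 (SE 0.13). KO 1 and WT 4 had the same highest value. The 2 genes of the alternative pathway were as close. Relb (ENSMUSG00000002983.17, chromosome 7, 19606217 to 19629438, minus strand) averaged 34.6 ± 2.97 in KO and 33.7 ± 4.56 in WT libraries (SD, n = 3 each), a log2 difference of 0.04. Nfkb2 (ENSMUSG00000025225.14, chromosome 19, 46304320 to 46312385, plus strand), the gene of p100 and p52, averaged 47.9 ± 6.30 in KO and 50.2 ± 6.66 in WT libraries (SD, n = 3 each), a log2 difference of -0.02. Exons of Nfkb2 overlap those of Psd on the opposite strand, which reached at most 3.2 FPM, and the sources used here do not say whether reads were counted by strand. The same holds for Bcl3 and the antisense gene Gm16175, which reached at most 0.2 FPM.

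None of the 5 regulators passed either. Nfkbia measured 163.5, 100.7 and 84.6 FPM in KO 1, KO 4 and KO 5 and 104.2, 140.6 and 94.8 in WT 1, WT 2 and WT 4. KO libraries held both the highest and the lowest value, and the log2 difference was 0.20 (SE 0.17, limma adjusted p = 1). Nfkbie (ENSMUSG00000023947.8, chromosome 17, 45555703 to 45563169, plus strand), the gene of IkappaB-epsilon, was the steadiest of the 10, at 30.8 ± 0.808 in KO and 30.8 ± 2.91 in WT libraries (SD, n = 3 each). Over the 6 libraries its highest value was 1.20 times its lowest. Nfkbid (ENSMUSG00000036931.15, chromosome 7, 30421732 to 30428746, plus strand) encodes IkappaB-NS, an inhibitor of the nuclear kind, and averaged 80.5 ± 15.8 in KO and 85.3 ± 12.5 in WT libraries (SD, n = 3 each), a log2 difference of 0.01 in the fit.

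Tnfaip3 (ENSMUSG00000019850.11, chromosome 10, 19000910 to 19015657, minus strand) encodes A20, a ubiquitin-editing enzyme that shuts off signalling to NF-kappaB. It measured 766.9, 117.8 and 144.5 FPM in KO 1, KO 4 and KO 5 and 493.8, 612.8 and 130.8 in WT 1, WT 2 and WT 4. Each group held high and low libraries, and with the series term the log2 difference was 0.24 (SE 0.16, limma adjusted p = 1). Without the series term it was -0.53, with an unadjusted p of 0.507 from limma. Bcl3 (ENSMUSG00000053175.17, chromosome 7, 19808462 to 19822770, minus strand), an IkappaB-like protein that binds p50 and p52 in the nucleus, measured 7.2, 7.8 and 10.5 in KO 1, KO 4 and KO 5 and 6.6, 8.0 and 10.7 in WT 1, WT 2 and WT 4. The groups overlapped, and the log2 difference was -0.12 (SE 0.18).

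Over the 10 genes, 0 passed the test between KO and WT, as did 0 of all 14944 genes (0%). Of the 10, 0 had an unadjusted limma p under 0.05, against 37 of all genes (0.248%). Where nothing differs, a share near the threshold of 0.05 would be expected. The share found lay far below that, for a reason that was not tested. The test did not call Prmt5 either, and a missing call says little. For 0 of the 10 were the KO and WT values free of overlap, against 2.88% of all genes. The smallest limma p among the 10 was 0.180, that of Tnfaip3. The fit gave 6 positive and 4 negative differences with a median of 0.01, the median of all genes being 0.01. When libraries were scaled by their ERCC spike-ins instead, 1 difference was positive and 9 were negative with a median of -0.21, and the median of all genes was -0.20. On the authors' scaling, the 95% interval of the difference, for each of the 10 genes, excluded a 2-fold change in either direction, and for 8 it excluded a 1.5-fold change. The exceptions were Nfkbia, whose interval reached a 1.51-fold higher level in KO, and Tnfaip3, whose interval reached 1.53-fold. With ERCC scaling the standard errors were 0.51 to 0.53, and 0 of the 10 intervals excluded a 2-fold change.

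**Figure D2:**
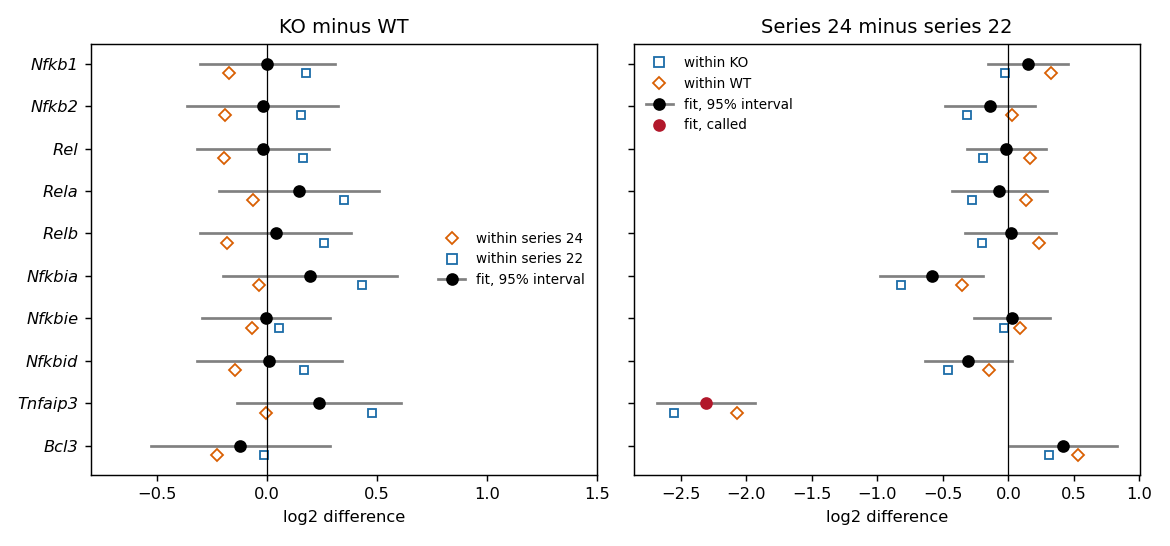
Log2 differences KO minus WT (left) and series 24 minus series 22 (right; the horizontal scales differ) for the 10 genes, as filled points with 95% intervals from the limma fit over all 6 libraries and as open symbols within each series or genotype. The interval of every gene crosses 0 on the left, and on the right Tnfaip3, the 1 gene called, lies at -2.31.

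Within a series the genes leaned one way together. Within series 22, KO 1 against the mean of WT 1 and WT 2, the difference was positive for 9 of the 10 genes with a median of 0.17, and 66.5% of all genes were positive with a median of 0.12. Within series 24, KO 4 and KO 5 against WT 4, the difference was negative for 10 of 10 with a median of -0.16, and 71.1% of all genes were negative with a median of -0.08. Each of these rests on 1 library in one of the groups. Against WT 2 alone, without WT 1, KO 1 was higher for 6 of the 10 genes (median 0.10) and for 62.7% of all genes (median 0.07). The interaction of genotype with series was negative for all 10 genes in the fit with a median of -0.35, the median of all genes being -0.21, and it passed the test for 0 of them and for 0 of all genes (0%), with the smallest limma adjusted p among the 10 at 0.678. At an unadjusted limma p under 0.05 it gave 0 of the 10 and 2.47% of all genes.

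Proportions within a library do not depend on how libraries are scaled. As a share of the summed levels per kb of the 5 subunits, Nfkb1 took 33.1%, 35.9% and 37.4% in KO 1, KO 4 and KO 5 and 34.3%, 33.4% and 36.9% in WT 1, WT 2 and WT 4. The groups overlapped (exact permutation p = 0.8, two-sided). The shares of Nfkb2 (16.6% to 21.0%), Rel (14.4% to 17.7%), Rela (14.5% to 16.7%) and Relb (14.7% to 15.7%) overlapped between KO and WT as well, with the smallest exact permutation p at 0.2 for Rela, which averaged 15.9% ± 0.727 in KO and 14.9% ± 0.707 in WT libraries (SD, n = 3 each). The summed level per kb of the 3 IkappaB genes Nfkbia, Nfkbie and Nfkbid was 1.99 ± 0.435 times that of the 5 subunits in KO libraries and 2.06 ± 0.375 times in WT libraries (SD, n = 3 each; exact permutation p = 0.8, two-sided). Counted with the ratios to Nfkb1 given below, 11 proportions were chosen after the values had been seen, and their p-values are not adjusted.

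Apart from genotype, Tnfaip3 differed strongly along the library series, in KO and WT alike. It measured 117.8, 144.5 and 130.8 FPM in KO 4, KO 5 and WT 4 of series 24, against 766.9, 493.8 and 612.8 in KO 1, WT 1 and WT 2 of series 22. The series did not overlap, KO 1 was highest and KO 4 lowest. The level was 4.96-fold lower in series 24, a log2 difference of -2.31 (SE 0.16, limma adjusted p = 0.00344), at -2.55 within KO and -2.07 within WT libraries. Of all genes 21 (0.141%) were called, 20 (0.134%) of them lower in series 24. Besides Tnfaip3, these 20 held Plk2, Hsph1, Ppp1r15a, Klf11, Nr4a1, Nr4a2 and Jun, among others. Tnfaip3 had the third smallest p, after the heat shock genes Hspa1b and Hspa1a. Its call was lost without KO 1 (limma adjusted p = 0.310), the only KO library of series 22, and without WT 4 (0.0942), the only WT library of series 24. It was also lost without a mean-variance trend (limma adjusted p = 0.133). In each of these settings limma called 0 genes in all. The call held without WT 1.

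Of the other 9 genes, 0 passed between the series. Nfkbia measured 100.7, 84.6 and 94.8 FPM in KO 4, KO 5 and WT 4 of series 24, against 163.5, 104.2 and 140.6 in KO 1, WT 1 and WT 2 of series 22, with no overlap. Its log2 difference was -0.59 (SE 0.17), at -0.82 within KO and -0.35 within WT libraries, which limma did not call (adjusted p = 0.394). Without WT 1 it was -0.71 and passed (limma adjusted p = 0.0397). Nfkbid averaged 74.0 ± 4.66 in series 24 and 91.8 ± 12.7 in series 22 (SD, n = 3 each), a log2 difference of -0.31 with overlapping values. Bcl3 averaged 9.67 ± 1.62 in series 24 and 7.27 ± 0.702 in series 22 (SD, n = 3 each), a log2 difference of 0.42 (limma adjusted p = 0.546). The 5 subunits had differences between -0.14 (Nfkb2) and 0.15 (Nfkb1), and Nfkbie one of 0.03. So 2 of the 10 genes were lower in series 24 without overlap, where 6.14% of all genes were, and 0 were higher without overlap (20.5% of all genes in either direction). At the same time 3 of the 10, Tnfaip3, Nfkbia and Bcl3, had an unadjusted limma p under 0.05, where 8.81% of all genes had.

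Ratios to Nfkb1 do not depend on scaling, and Tnfaip3 differed most between the series by this measure too. The level of Tnfaip3 per kb was 0.852 ± 0.0632 times that of Nfkb1 in series 24 and 4.47 ± 0.582 times in series 22 (SD, n = 3 each). The ratio of Nfkbia to Nfkb1 was 2.75 ± 0.479 in series 24 and 4.37 ± 0.567 in series 22, and that of Nfkbid 1.49 ± 0.138 in series 24 and 2.03 ± 0.126 in series 22 (SD, n = 3 each). For these 3 ratios the series did not overlap, and the exact permutation p was 0.1, the smallest that 3 against 3 can give. Of all genes, 14.7% had a ratio to Nfkb1 that was lower in series 24 without overlap and 6.18% one that was higher. The ratio of Nfkbie overlapped, at 0.481 ± 0.0316 in series 24 and 0.523 ± 0.0278 in series 22 (SD, n = 3 each; exact permutation p = 0.2), and that of Bcl3 was higher in series 24 without overlap, at 0.182 ± 0.0145 against 0.153 ± 0.0124 in series 22 (SD, n = 3 each; exact permutation p = 0.1). Nfkbid and Bcl3 overlapped between the series in their own levels. The summed level per kb of the 3 IkappaB genes was 1.73 ± 0.197 times that of the 5 subunits in series 24. In series 22 it was 2.32 ± 0.174 times, without overlap (SD, n = 3 each; exact permutation p = 0.1). Nfkb1 itself took a larger share of the 5 subunits in series 24 without overlap, 36.7% ± 0.799 against 33.6% ± 0.620 in series 22, and Nfkb2 a smaller one, 17.5% ± 0.780 against 19.7% ± 1.18 in series 22 (SD, n = 3 each; exact permutation p = 0.1 for both). The shares are parts of a whole, so a larger one lowers others. No rate over all genes was computed for the shares or the summed ratio. By their levels, 20.5% of all genes did not overlap between the series.

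**Figure D3:**
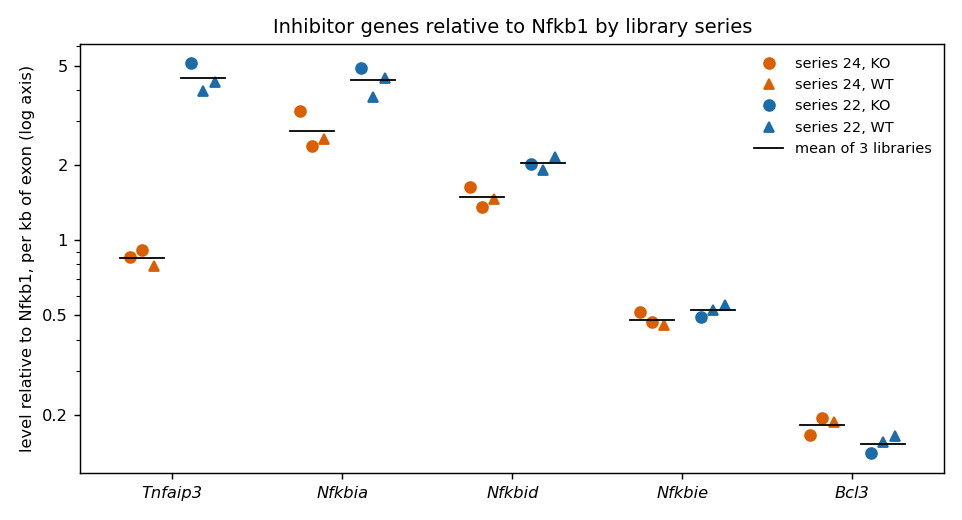
Level of each regulator gene, Bcl3 included, relative to Nfkb1, both per kb of exon (log axis), with the 3 libraries of series 24 left of the 3 of series 22, circles for KO, triangles for WT and a line at each mean. Tnfaip3 lies between 0.786 and 0.912 in series 24 and between 3.97 and 5.11 in series 22.

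Other values moved with the series. Hspa1a, a heat shock gene, measured 5.6 to 6.6 FPM in series 24 and 61.9 to 126.3 in series 22. The sum of the 16 myeloid markers ran the other way, at 776.6 to 1671.2 in series 24 and 307.2 to 753.4 in series 22, and that of the 12 B cell markers overlapped, at 35.5 to 49.6 in series 24 and 31.3 to 52.5 in series 22. The part of these in the differences of Tnfaip3 and Nfkbia was not tested.

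The rest of the pathway was read from 6 lists of genes on the authors' scaling, and a few genes stand on 2 lists. Of 16 genes of the IkappaB kinases and the relay from the T cell receptor, 0 passed between KO and WT, with 13 positive and 3 negative differences and a median of 0.04. Tab1, an activator of the kinase TAK1, was the one gene of the 6 lists whose groups did not overlap, with 31.5, 33.0 and 30.7 FPM in KO 1, KO 4 and KO 5 and 19.9, 24.3 and 29.0 in WT 1, WT 2 and WT 4. That is 1 of 83 genes, against 2.88% of all genes. Its log2 difference was 0.32 (SE 0.15, limma adjusted p = 1).

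Of 17 adaptors and ubiquitin enzymes 0 passed between KO and WT (median 0.01). Rbck1, a part of the linear ubiquitin ligase, had the smallest p of the positive side (log2 difference 0.16), and Traf1, an adaptor of TNF receptors, that of the negative side (-0.06). Among 19 tested receptors of 22 listed, 0 passed (median 0.05), with Tlr4, a receptor of myeloid cells for bacterial lipid, at 0.40 and Il1r1, the interleukin 1 receptor, at -0.37. Among 10 tested ligands of 12 listed, 0 passed (median 0.03), with Ltb, the gene of lymphotoxin beta, at 0.33 and Tnfsf11, the gene of RANK ligand, at -0.19. The IkappaB genes Nfkbib and Nfkbiz were at 0.09 and 0.06. Of 28 tested targets of 30 listed, 0 passed, with 19 positive and 9 negative differences and a median of 0.05 beside 0.01 for all genes. Ccl5, a chemokine gene, was at 0.36 and Il2ra, the interleukin 2 receptor alpha chain, at -0.20. Il2 and Csf2, cytokine genes that activated T cells switch on, lay under the filter at 0.7 to 1.1 and 0.6 to 1.1 FPM.

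Between the series, 0 genes of the 6 lists passed. The smallest p-values were those of Junb and Nfkbiz, both lower in series 24. Junb, an AP-1 subunit, measured 375.1, 427.3 and 443.4 FPM in KO 4, KO 5 and WT 4 of series 24, against 1401.8, 799.4 and 1023.3 in KO 1, WT 1 and WT 2 of series 22, a 2.67-fold lower level (limma adjusted p = 0.0513). Nfkbiz, the gene of the nuclear IkappaB-zeta, averaged 150.1 ± 12.8 in series 24 and 257.5 ± 29.4 in series 22 (SD, n = 3 each), a log2 difference of -0.79 (limma adjusted p = 0.105). Over the list of targets there were 12 positive and 16 negative differences with a median of -0.03 beside 0.06 for all genes, and 5 of 28 were lower without overlap, where 6.14% of all genes were. Higher in series 24 without overlap were 3 of 28 targets, 5 of 17 adaptors and ubiquitin enzymes, 5 of 19 receptors and 3 of 16 genes of the kinase arm, where 14.3% of all genes were. On the higher side were Ikbke, an IkappaB kinase relative, at 0.38, Tlr1 at 0.33 and Tnip2, a partner of A20, at 0.30, none of which passed (limma adjusted p = 0.446, 0.469 and 0.585). Traf1 was at 0.21 and Il18, a cytokine gene, at 0.73. Myeloid cells use Il18 and Tlr1, the myeloid markers were higher in series 24 as well (776.6 to 1671.2 in series 24 and 307.2 to 753.4 in series 22), and their part in these differences was not tested. On the lower side, the cytokine gene Tnf was at -0.31, Bcl10, an adaptor of the T cell receptor relay, at -0.16, Il1rl1, the receptor of interleukin 33, at -0.14 and Birc2, a ubiquitin ligase of the TNF receptor complex, at -0.12, and none of these 6 passed either.

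**Figure D4:**
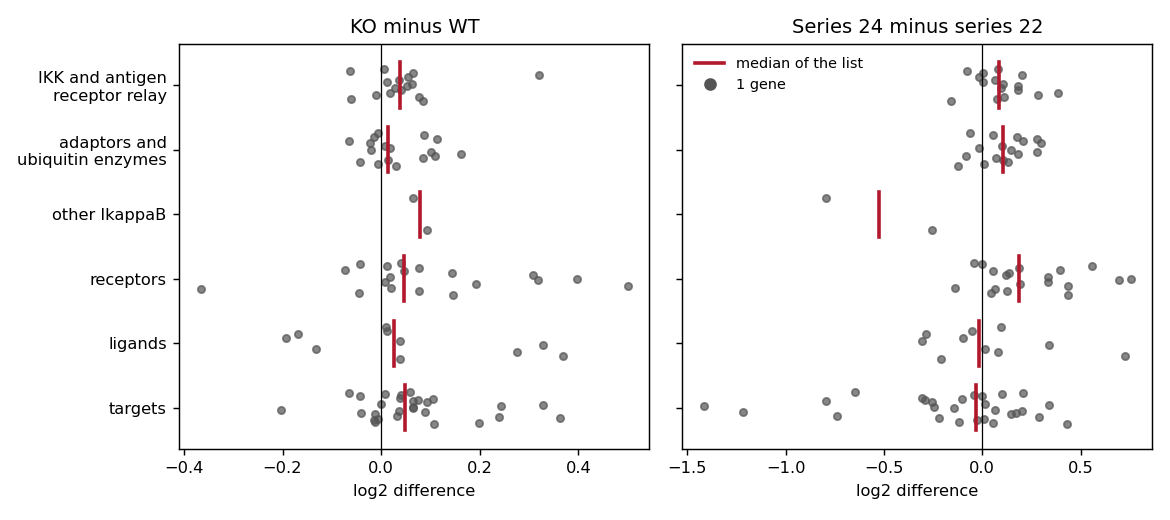
Log2 differences of every tested gene in 6 lists of the pathway, KO minus WT (left) and series 24 minus series 22 (right; the horizontal scales differ), with 1 point per gene and a red line at each list's median. Medians of the lists lie between 0.01 and 0.08 on the left, and on the right single targets reach -1.42 (Junb) while the median of the targets is -0.03.

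Among 8675 genes with a mean of at least 10, those whose log2 values followed Nfkbia most closely over the 6 libraries were Tex30 (Pearson r = 0.997), Tnfrsf12a (0.993), Rrad (0.982), Snu13 (0.972) and Bola1 (0.971). With 6 libraries and so many genes, high values are frequent, and they are given as a description. Of the other members, Nfkbid had r = 0.945 (rank 40), Tnfaip3 0.850 (rank 223), Nfkb2 0.792 (rank 344), Rela 0.521, Relb 0.418, Nfkbie 0.262, Rel 0.154 and Nfkb1 -0.17, and Bcl3 lay under the mean of 10.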

How the data were processed

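Per the labels' protocols, RNA of whole CD4 T cells was depleted of ribosomal RNA and made into stranded TruSeq libraries. STAR, featureCounts, DESeq2, DESeq and the build GRCm38.p3 are listed in the submitters' processing notes, without role or version. Values deposited by the authors are robust FPM to 1 decimal, treated here as RPM. Depth is therefore unknown, whole reads were not recovered, and no counting interval is given. The table held 54624 rows, 92 of them ERCC spike-ins, which stayed out of the tests. Of 54532 gene rows, 54409 matched a symbol by identifier. The table's 6 further value columns belong to none of these samples and stayed unused.

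The 14944 genes averaging 1 or more were fitted with limma 3.58.1 (R 4.3.3) as log2(value + 0.5) on series and genotype. The moderated test was two-sided and its prior variance followed the mean (trend). An adjusted p below 0.05 was called. The scale understates changes of low genes. The procedure was run on simulated data with independent noise of the same size in every library. That run does not cover libraries that stand apart, such as WT 1, or genes that shift together. Exon lengths and gene positions are from GENCODE M21 (GRCm38), promoters from RefSeq, and the identifiers of Nfkb2 and Rela differ from GENCODE's in version. Figures used matplotlib 3.10.9 in Python 3.11.15.

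The 10 genes and the lists were chosen with earlier results of these data known. By rule, each list names its gene of smallest p per direction and comparison, the 10 genes and Prmt5 are always named, and likeness to Nfkbia names 5 genes of mean at least 10. A gene that the rule names is not reported here. Hspa1a, Hspa1b, the other genes named as called between the series, single cell type markers and genes under the filter were named after their values were seen. Alternatives changed pseudocount, filter, scaling, variance model, terms and libraries.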

Additional observations from a re-analysis of the deposited data

How the results depend on the processing

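Between KO and WT, 0 genes were called in every setting other than the replicate block, which called 5, none of them among the 10. The replicate block left 1 residual degree of freedom, against 3 in the main fit. Replicate numbers 1 and 4 stand in both groups, but same-numbered libraries did not deviate together (r = -0.16 for number 1 and -0.41 for number 4), and the labels give the number no meaning. Between series 24 and series 22, 21 genes were called, against 54 with a mean of at least 5, 66 with median-of-ratios scaling, 10 with ERCC scaling, 0 without a mean-variance trend, 37 with limma's robust setting and 87 without the genotype term, and 0 to 111 with 1 library left out. The causes were not tested.

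Small KO minus WT differences changed sign. ERCC scaling gave -0.22 for Nfkb1, -0.072 for Rela, -0.18 for Relb, -0.022 for Nfkbia and -0.21 for Nfkbid, and moved the median of all genes to -0.20, against 0.01. Total-sum scaling gave 0.013 for Nfkb2, 0.015 for Rel and 0.025 for Nfkbie, and median-of-ratios scaling -0.011 for Nfkb1 and -0.0011 for Nfkbid. Without the series term Nfkbie was at 0.0040, Nfkbid at -0.091, Tnfaip3 at -0.53 and Bcl3 at 0.019. With the replicate block Nfkb1 was at -0.0032, Nfkb2 at 0.072 and Nfkbie at 0.041. Between the series, Rel was at 0.023 with total-sum and 0.042 with ERCC scaling, and median-of-ratios scaling gave -0.053 for Relb and -0.039 for Nfkbie.

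With 1 library left out, which can leave an arm of a series with none, KO minus WT spanned -0.17 to 0.18 for Nfkb1, -0.19 to 0.15 for Nfkb2, -0.20 to 0.16 for Rel, -0.063 to 0.35 for Rela, -0.18 to 0.26 for Relb, -0.038 to 0.43 for Nfkbia, -0.069 to 0.056 for Nfkbie, -0.15 to 0.17 for Nfkbid and -0.0036 to 0.48 for Tnfaip3. The series difference spanned -0.026 to 0.32 for Nfkb1, -0.31 to 0.028 for Nfkb2, -0.20 to 0.16 for Rel, -0.28 to 0.14 for Rela, -0.20 to 0.24 for Relb and -0.034 to 0.092 for Nfkbie. It kept its sign for Tnfaip3 (-2.55 to -2.07), Nfkbia (-0.82 to -0.35), Nfkbid (-0.46 to -0.15) and Bcl3 (0.31 to 0.53). Unknown depth, 3 libraries a group and the uneven spread of KO and WT over the series limit all comparisons.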
